A study of Mus musculus with 5 samples.

Results

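Classical monocytes of the mouse kidney were taken as the barcodes that carried the monocyte transcript Ly6c2 together with lysozyme and lacked the transcripts of macrophages, neutrophils and T cells. A barcode, the droplet label that stands for a cell, was kept with at least 500 UMIs (unique molecular identifiers, each counting 1 captured RNA molecule), at least 200 genes and at most 25% of its UMIs on mitochondrial genes. Members had at least 5 UMIs of Lyz2 and at least 2 of Ly6c2, at most 1 UMI of C1qa, C1qb and C1qc together, at most 1 of Gpnmb, under 1% of their UMIs on S100a8 and S100a9, and none of Cd3d, Cd3e or Cd3g. The rule was met by 181 of 79202 barcodes past the depth, gene and mitochondrial filters. The levels of those 11 genes are therefore given as a description only.

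The kidneys came from male C57BL/6J mice aged 6 to 8 weeks after unilateral ischemia-reperfusion (UIR) of the left kidney, which was sampled at day 1, day 3, day 14 or day 28 post-UIR, and from sham-operated mice. No transgene or deletion was part of the single-cell groups, and the labels give each kidney sample as from 3 mice, with nothing in the matrix to tell animals apart. The study's methods describe more matrices than the deposited matrix has libraries, and how they were joined is not stated in the sources used here. The deposited matrix held 5 libraries, numbered 1 to 5, and neither the labels nor the matrix tied a number to a day or to sham. All libraries were therefore treated as 1 pooled sample, no comparison of days was made, no p-value was computed, and libraries are named by number with no order implied.

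Classical monocytes form in the bone marrow and leave it through the chemokine receptor Ccr2. In an injured kidney they enter the tissue from the blood and can become macrophages or dendritic cells there, while non-classical monocytes patrol the vessel wall and are kept by the nuclear receptor Nr4a1. In mice, the Ly6C surface protein read by antibodies separates the classical subset from the other.

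Markers that the rule did not use were present in most of these cells. A level is given in CPM, the UMIs of a gene per 1000000 UMIs of the cells named, and an interval in brackets is an exact Poisson 95% interval, which covers counting error only. Chil3, a chitinase-like protein of monocytes and macrophages, stood at 1315 CPM, Ccr2 at 618 CPM, and Plac8, a small cysteine-rich protein of immune cells, at 2346 CPM. Chil3 was seen in 112 of 181 members (61.9%), Ccr2 in 163 (90.1%) and Plac8 in 172. In 24391 tubule cells, which should lack all 3 genes, the shares were 0.0738%, 0.0984% and 9.95%, at a median depth of 3899 UMIs against 4146 in the members. After thinning each cell to 1000 UMIs the members' shares were 43.6%, 47.5% and 79.6%, and 32 members of 181 still held all 3 genes against 0 of 18105 tubule cells. The tubule class required 0 UMIs of the leukocyte gene Ptprc, here and below. This can keep out barcodes with immune RNA, so its shares may understate what tubule barcodes carry. Unthinned, 98 members held all 3, 71 held 2, 11 held 1 and 1 held none. Non-classical monocytes, the other monocyte class, held all 3 in 10.2% and 2 of them in 30.7% of 88 cells. Plac8 was 2346 against 1202 CPM in the 2 classes, within 2-fold. Without library 3 it was at 3530.7 CPM in the members against 753 CPM and past 2-fold. The labels name the cell type of every sample as goblet cell, a mucus-secreting epithelial cell. All 6 goblet markers looked up (Muc2, Clca1, Zg16, Fcgbp, Tff3 and Spink4) had 0 UMIs in the members, where 3 UMIs would be 3.42 CPM.

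Library 3 held most of these monocytes. The counts in libraries 1 to 5 were 8, 27, 121, 23 and 2 cells, so 66.8% of the members came from 1 library. Among barcodes with at least 1000 UMIs, members made up 0.0952% (exact binomial 95% interval 0.0411 to 0.188) in library 1, 0.276% (0.182 to 0.401) in library 2, 0.643% (0.534 to 0.768) in library 3, 0.287% (0.182 to 0.430) in library 4 and 0.0228% (0.00276 to 0.0824) in library 5. On this scale the interval of library 3 overlapped none of the others. Of all filtered barcodes, from 500 UMIs on, members made up 0.358% (0.297 to 0.427) in library 3, an interval that overlapped those of library 2 (0.157 to 0.347) and library 4 (0.129 to 0.306). Library 3 also stood apart in depth: it held 33839 of the filtered barcodes against 10020 to 12745 in the others, at a median of 1242 UMIs against 3190 to 4294.5. Its members were not shallow, with a median of 4424 UMIs against 3244.5 to 4274 elsewhere. Counted among myeloid cells only (members, non-classical monocytes, macrophages high in C1q and neutrophils), the shares were 2.17%, 4.16%, 16.2%, 9.16% and 3.51% in libraries 1 to 5. Neither share separates more monocytes from fewer cells of another kind, and the part of the depth of library 3 in them was not tested. No barcode sequence was shared between libraries among the members.

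**Figure D1:**
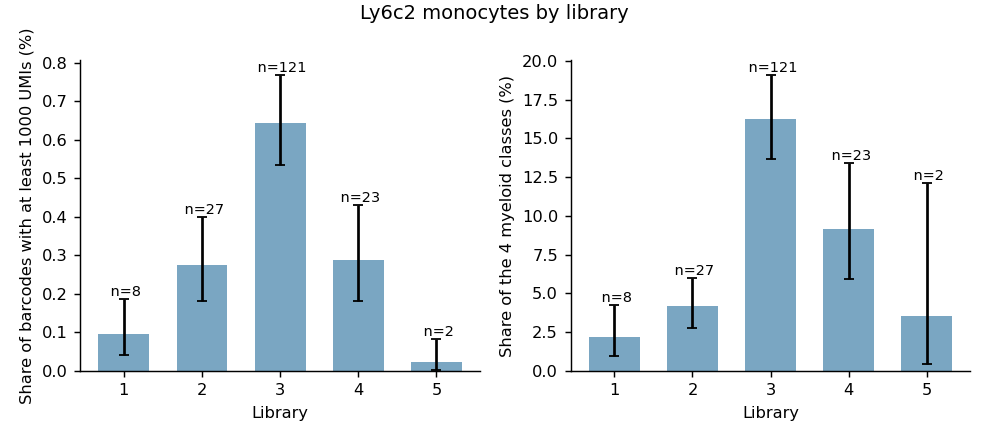
Share of Ly6c2 monocytes in each library, as a percent of barcodes with at least 1000 UMIs (left) and of the 4 myeloid classes (right), with exact binomial 95% intervals and the number of cells over each bar. Library 3 is highest in both, at 0.643% and 16.2%.

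Members carried RNA of other cells to different degrees. The 10 kidney tubule markers looked up summed to 8794 CPM in the members (2554 to 10218 CPM by library), and 32 of 181 members had at least 1% of their UMIs on them, 24 of these in library 3. Kap, the androgen-regulated protein of proximal tubule, stood at 3516 CPM in the members against 60295 CPM in tubule cells, and Gpx3, a glutathione peroxidase of proximal tubule, at 3688 against 7329 CPM. The collecting duct and loop markers Aqp2 and Slc12a1 were at 0 UMIs. At least 2 UMIs of endothelial markers were found in 2 members, of B cell markers in 12 and of NK cell markers in 1, and of T cell or fibroblast markers in none, and no member reached 1% of UMIs on erythroid markers. Of the B cell list, Cd79a and Ms4a1 were at 0, and nearly all UMIs were of Ighm at 70.7 CPM. With overlaps, 45 members met at least 1 of these conditions. No doublet caller was run. As an alternative, barcodes that met any of these conditions were left out of the members and of the classes compared with them. This changed no count of genes by more than 1.5 times, and the part of the 45 members alone in the counts was not tested. The members' levels moved to 424 CPM for Clec4e, 723 for Ccr2, 2779 for Plac8, 1570 for Chil3 and 1845 for Il1b. Each of these lay outside its Poisson interval.

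Ly6c2 lies on chromosome 15 of mouse (GRCm38 chr15:75108158-75111970, minus strand), in a cluster with its near copy Ly6c1 (chr15:75044018-75048830, minus strand). The last 500 bases of their longest coding transcripts, the end that this 3' assay reads, were identical at 484 of 507 aligned positions (95.5%). Of 411 windows of 90 bases in that end, 35 (8.52%) occurred in both genes, so a read there could come from either gene. The rule and the other gates set Ly6c2, which is given as a description. Ly6c2 was at 1173 CPM in the members, 7.43 CPM in non-classical monocytes, 2.46 CPM in C1q-high macrophages and 46.5 CPM in neutrophils. Ly6c1 was at 49.0 CPM in the members, and 40 of its 43 UMIs lay in the 2 members with endothelial markers. Without those 2 cells Ly6c1 was at 3.52 CPM in 179 members, against 1536 CPM in 401 endothelial cells, which were chosen on neither gene and held Ly6c2 at 2.4 CPM.

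The promoters of this pair are shown because they differ more than the ends of the transcripts do, with those of Plac8 and of Clec4e, the lectin receptor Mincle that the study is about. Each is the run of 250 bases before the start of the RefSeq gene model (GRCm38.p6), written 5' to 3' on the gene's strand. For Ly6c2 it is chr15:75111972-75112221, for Ly6c1 chr15:75048838-75049087, for Plac8 chr5:100572206-100572455 and for Clec4e chr6:123289872-123290121, all on the minus strand. Capitals mark a short core of the myeloid factor PU.1, GAGGAA or its longer form GAGGAAGT, and the C/EBP form TTGCNNAA. Both strands were searched, so a match on the other strand appears as its reverse complement.
Ly6c2: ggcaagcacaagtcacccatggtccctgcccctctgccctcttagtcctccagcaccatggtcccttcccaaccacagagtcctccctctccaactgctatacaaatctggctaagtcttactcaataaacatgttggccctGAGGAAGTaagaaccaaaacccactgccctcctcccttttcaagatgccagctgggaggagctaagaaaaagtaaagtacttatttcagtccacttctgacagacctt
Ly6c1: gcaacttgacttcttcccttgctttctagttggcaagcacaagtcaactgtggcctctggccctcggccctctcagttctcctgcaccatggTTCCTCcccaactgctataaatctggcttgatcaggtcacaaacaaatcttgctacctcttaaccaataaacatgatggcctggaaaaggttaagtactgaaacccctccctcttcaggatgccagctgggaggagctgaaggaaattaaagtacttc
Plac8: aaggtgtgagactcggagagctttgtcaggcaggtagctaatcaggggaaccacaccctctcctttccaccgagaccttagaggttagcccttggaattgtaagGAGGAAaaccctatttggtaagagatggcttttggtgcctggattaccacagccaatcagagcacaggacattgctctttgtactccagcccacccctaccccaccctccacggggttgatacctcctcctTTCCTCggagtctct
Clec4e: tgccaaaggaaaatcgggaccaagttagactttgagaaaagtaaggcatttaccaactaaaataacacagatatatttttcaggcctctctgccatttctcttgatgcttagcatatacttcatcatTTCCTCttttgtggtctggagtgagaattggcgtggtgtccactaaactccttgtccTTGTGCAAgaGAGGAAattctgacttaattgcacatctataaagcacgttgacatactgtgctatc
The longer form GAGGAAGT, which contains the short one, was found in the Ly6c2 window and in 660 of 27025 promoter windows of this length (2.44%). GAGGAA occurred once in the windows of Ly6c2, Ly6c1 and F13a1, at 2 places in those of Plac8 and Clec4e, and in 23.1% of all windows. TTGCNNAA was found in the Clec4e window and in 9.55% of all. None of these letters occurred in the windows of Chil3, Ccr2, Lyz2 or Vcan. The upstream windows of Ly6c2 and Ly6c1 were identical at 170 of 284 aligned positions (59.9%), fewer than the ends of their transcripts. Most of the Ccr2 window and the ends of the Plac8 and Lyz2 windows nearest the gene lie inside the longer gene models of the annotation used for gene positions, so these are not wholly upstream.

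For the genes given here, the limit on Ly6c2 lay within a gradient. Other genes looked up across it, among them Ccl2, Ccl7 and Arg1, are not shown, so the gradient is not claimed for them. Barcodes that met every other condition numbered 529 with 0 Ly6c2 UMIs and 70 with 1, both outside, and 45 with 2, 27 with 3, 66 with 4 to 7 and 43 with 8 or more, all inside. Across these 6 groups in turn F13a1, the A chain of coagulation factor XIII, was at 121, 296, 313, 509, 618 and 863 CPM. Hp, haptoglobin, was at 129, 366, 615, 1026, 1050.1 and 1037 CPM. Cells just outside and just inside were close for Chil3 (1188 and 1333 CPM) and F13a1, and further apart for Ccr2 (403 and 584 CPM), with Plac8 at 1994 and 2620 CPM. Cd74, the invariant chain of MHC class II, went the other way along the order, at 8075, 2997, 3384, 1469, 821 and 1087 CPM. Median depth was lowest in the group with 0 and highest in that with 8 or more, at 3362, 3938, 3675, 4234, 3893.5 and 4932 UMIs, and library 3 gave 57.3, 75.7, 57.8, 63.0, 69.7 and 74.4% of these cells. The part of depth and of library mix in these levels was not tested. With 1 limit dropped at a time, 259 barcodes would meet the rule without that on Lyz2, 199 without that on C1q and 207 without that on S100a8 and S100a9. Of those that the S100 limit kept out, 10 had 1 to 2% of UMIs on the S100 pair, with the neutrophil gene Retnlg at 314 CPM, and 16 had 2% or more, with Retnlg at 9352 CPM. The 11 members with 0.5 to 1% had none of it. Inside the rule, Lyz2 ranged from 5 to 230 UMIs a cell (median 83) and Ly6c2 from 2 to 28 (median 4).

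**Figure D2:**
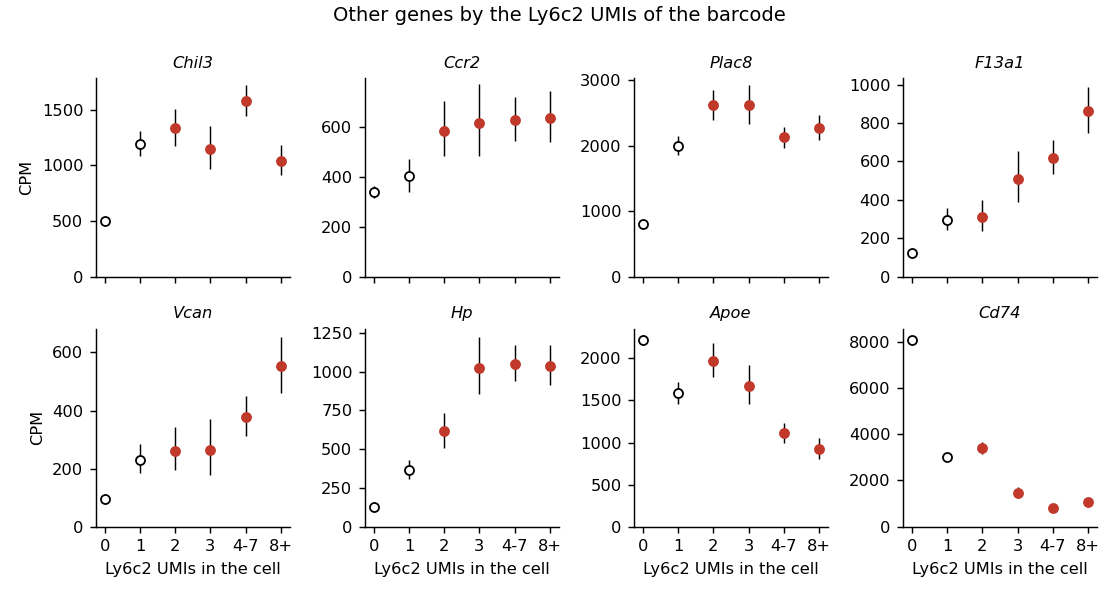
CPM of 8 genes in barcodes grouped by their Ly6c2 UMIs (x axis), with every other condition of the rule met; filled points are members, open points lie outside, and bars are Poisson 95% intervals. F13a1 runs from 121 to 863 CPM and Cd74 from 8075 to 1087 CPM between 0 and 8 or more Ly6c2 UMIs.

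Members were compared with 3 other myeloid classes. Non-classical monocytes (88 cells) had at least 3 UMIs over at least 2 of Ace, Cd300e, Ear2, Adgre4 and Treml4. C1q-high macrophages (1021 cells) had at least 10 UMIs of C1qa, C1qb and C1qc, and neutrophils (781 cells) at least 2% of UMIs on S100a8 and S100a9 with Csf3r, Retnlg or Cxcr2. Each class had at most 1 Ly6c2 UMI and the members' filters. Ratios are log2 of the CPM of the members over that of the other class, a gene was compared where its mean CPM over the pair was at least 20, and a difference was counted from 2-fold on. Genes that either gate used are among the counts and are named as such. The members are the same cells in all 3 comparisons, which are therefore not independent of each other. List counts without library 3 are given as values, with no share over all genes beside them. The counts over all genes were higher in that setting in each comparison, so the percentages given for all libraries are not their background.

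**Figure D3:**
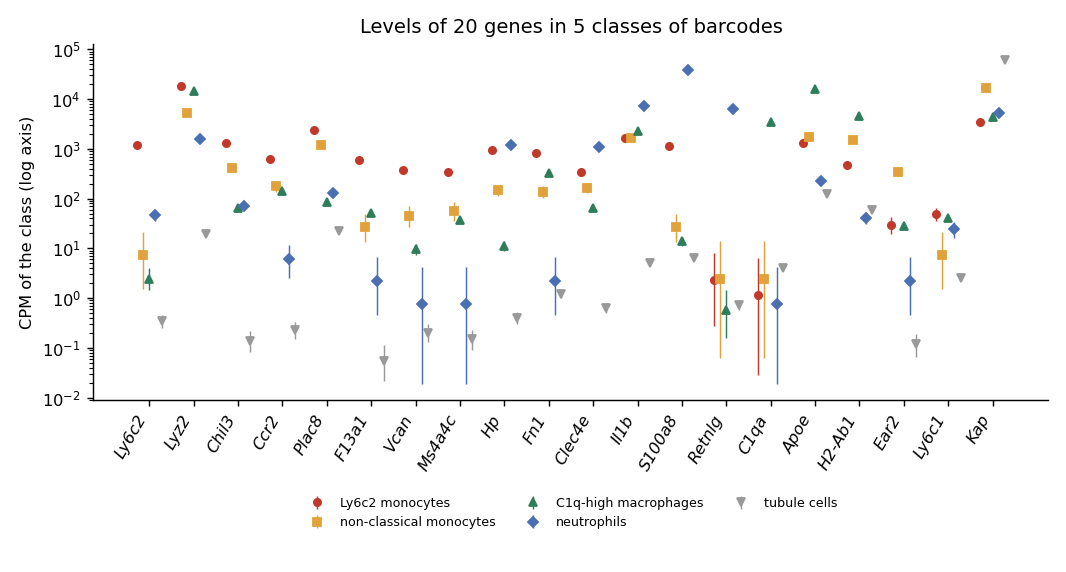
CPM (log axis) of 20 genes in Ly6c2 monocytes, non-classical monocytes, C1q-high macrophages, neutrophils and tubule cells, with Poisson 95% intervals. F13a1, Vcan and Fn1 are highest in Ly6c2 monocytes, Kap in tubule cells, and S100a8 and Retnlg in neutrophils.

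Against non-classical monocytes, the members were higher in classical monocyte genes and in genes of coagulation and matrix. Of 5555 genes compared, 374 (6.73%) were at least 2-fold higher and 605 (10.9%) at least 2-fold lower in the members, and the interval of the ratio lay off 0 for 327 and 533 of these. The list of classical monocyte genes had 16 of 22 higher and 2 lower, with a median log2 ratio of 1.54 against -0.05 over all genes. Coagulation and matrix genes had 8 of 10 higher and 0 lower (median 1.86). F13a1 stood at 602 CPM in the members and 27.2 CPM in the non-classical cells, a log2 ratio of 4.47 (3.61 to 5.48). Vcan, the matrix proteoglycan versican, stood at 383 against 44.6 CPM, Fn1, fibronectin, at 815 against 136 CPM, and F10, coagulation factor X, at 163 against 57.0 CPM. Ccr2 was at 618 against 176 CPM (log2 1.81), and the inflammatory chemokine receptor Ccr1 at 136 against 17.3 CPM. Markers of other cells also leaned higher. Of 5 neutrophil markers 4 were higher and 0 lower (median 2.93), with 2 of the 5 used by the gates. Both endothelial markers compared were higher (median 4.25).

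Chemokine, cytokine and interferon lists leaned higher in the members. Chemokine ligands had 6 of 11 higher and 1 lower. Ccl2, the ligand of Ccr2, was at 285 against 17.3 CPM, a log2 ratio of 4.04 (2.97 to 5.37). The ratio was 1.70 in library 2 and 4.6 in library 3, and 2.81 without library 3, at 148.8 against 21.2 CPM. Cxcl2, which draws neutrophils, stood at 2349 against 775 CPM, and Ccl6 at 1128 against 528 CPM. Among interleukin-1, inflammasome and cytokine genes, 5 of 13 were higher and 0 lower, with the inflammasome adaptor Pycard at 364 against 114 CPM and Osm, the cytokine oncostatin M, at 99.2 against 19.8 CPM. Il1b itself was nearly equal, at 1665 and 1657 CPM. Interferon-stimulated genes had 7 of 10 higher and 1 lower, among them Ifi27l2a at 952 against 332 CPM and Ifi204, a DNA sensor, at 193 against 49.5 CPM. Ly6a, also on the list, was the 1 lower, at 130.0 against 364 CPM. Of 19 myeloid transcription factors, 1 was higher and 3, Klf4, Id2 and Batf3, were lower. Spi1, which encodes PU.1, was at 387 against 201 CPM and Nr4a1 at 259 against 466 CPM, both within 2-fold. Without library 3, 14 of 16 interferon-stimulated genes were higher and 1 lower, 7 of 14 interleukin-1 and cytokine genes were higher and 0 lower, and 5 of 9 chemokine ligands were higher and 1 lower. Of the transcription factors 5 were then higher and 3 lower: Spi1 was past 2-fold at 504 against 201.5 CPM and Klf4 and Batf3 were within it. Cxcl2 was then at 1406 against 711 CPM, just within 2-fold. All 4 endothelial markers compared were also higher without library 3 (median log2 2.94), where 1 member of library 1 held all 99 Emcn UMIs. Endothelial cells held the interferon list at 3714 CPM in sum, against 2076 CPM in all members. The part of that member in the counts without library 3 was not tested.

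Non-classical, dendritic and tubule lists leaned lower in the members. The list of non-classical monocyte genes had 12 of 14 lower, 5 of which defined the other class. Of the other 7, Cd36, a scavenger receptor, stood at 27.4 against 240.3 CPM (log2 -3.13), Spn, the sialoprotein CD43, at 22.8 against 99.1 CPM, and Itgal, the integrin chain of LFA-1, at 124 against 310 CPM. Fcgr4, an Fc receptor for IgG, stood at 19.4 against 159 CPM. Cx3cr1, the receptor by which patrolling monocytes survive, was within 2-fold at 84.4 against 94.1 CPM. Without library 3 Itgal was within 2-fold (198 against 371 CPM) and Cx3cr1 past it, at 149 against 58.3 CPM. MHC class II genes had 4 of 6 lower and 0 higher (median -1.52), with H2-Aa at 526 against 1682 CPM and Cd74 at 1554 against 3989 CPM. With library 3 left out of both classes these were 1674 against 2875 and 4527 against 6242 CPM, and 1 of 6 remained past 2-fold (median -0.62), so 3 of the 4 calls were lost without library 3. In library 2 H2-Aa was at 1046 against 1412 CPM, and 320 of the 679 H2-Aa UMIs of the non-classical cells were in the 10 cells of library 1. All 3 genes compared from the list of monocyte-derived dendritic cells were lower over all libraries. Without library 3, 3 of 4 were lower and Clec10a, a lectin, was higher, at 49.6 against 5.30 CPM from 12 UMIs and 1 UMI. Mgl2, a galactose-binding lectin of dendritic cells and macrophages, had 0 UMIs in the members against 93 UMIs (230.4 CPM), at least 67.4-fold lower at the limit of 3 UMIs. Such a gene passed the CPM limit only through the non-classical cells. Over all 11 genes of the dendritic list the sums were 81.0 CPM in the members and 523 CPM in the non-classical cells. Of 13 survival and death genes 4 were lower, 3 of them the near-identical Bcl2a1a, Bcl2a1b and Bcl2a1d, whose reads the counting could split. Tubule markers also had 4 of 8 lower: the non-classical cells carried more of them, with Kap at 16765 CPM and 24 of 88 cells over 1% of UMIs. The non-classical cells had a median of 2731.5 UMIs, and 45 of them lay in library 3 and 30 in library 2. In these 2 libraries taken apart, 335 of the 374 higher and 543 of the 605 lower genes had the same sign in both, against 3329 of all 5555. These genes were chosen on pooled counts of the same libraries. With library 3 left out of both classes, the counts were 797 higher and 1021 lower. The number of genes compared there is not given, so 6.73% and 10.9% are not the shares for that setting. Classical monocyte genes then had 18 of 24 higher and 1 lower, and coagulation and matrix genes 7 of 8 higher and 0 lower. Both are given as values only.

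Against C1q-high macrophages, the monocyte genes were higher and the genes of resident and repair macrophages lower. Of 5427 genes compared, 336 (6.19%) were at least 2-fold higher in the members and 375 (6.91%) at least 2-fold lower, all with intervals off 0. Classical monocyte genes had 16 of 23 higher and 2 lower (median log2 1.64, against 0.10 over all genes). Hp stood at 946 against 11.3 CPM (log2 6.39, 6.05 to 6.74), Ifitm6, an interferon-induced membrane protein, at 529 against 14.2 CPM, and Plac8 at 2346 against 86.2 CPM. Prtn3, the serine protease proteinase 3 made by myeloid precursors, stood at 104 against 0.58 CPM. Among trafficking receptors 5 of 16 were higher and 3 lower: Ccr2 at 618 against 143 CPM, the integrin chains Itga4 and Itgal at 234 against 38.0 and 124 against 24.6 CPM, and Cd44, the hyaluronan receptor, at 436 against 135 CPM.

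Macrophage genes had 18 of 20 lower and 0 higher (median -3.03), with C1qa, C1qb, C1qc and Gpnmb set by the gates. Genes of this list that were low in the members passed the CPM limit only through the macrophages. Those genes could hardly be counted otherwise. Over all 20 genes, those of the gates included, the sums were 3481 CPM in the members and 32611 CPM in the macrophages. Apoe, the lipid carrier of macrophages, was at 1328 against 15782 CPM (log2 -3.57), Trem2, a lipid receptor, at 95.8 against 426 CPM, Ms4a7 at 14.8 against 534 CPM and Mrc1, the mannose receptor, at 8.0 against 153 CPM. Mmp12, macrophage elastase, stood at 2.28 against 784 CPM (log2 -8.42, -11.47 to -6.57) and the growth factor Igf1 at 1.14 against 100.3 CPM. Arg1, arginase of macrophages, was seen in 3 of 181 members (4.56 CPM) against 220.4 CPM. Chemokine ligands had 11 of 14 lower and 0 higher (median -2.23), with Ccl2 at 285 against 622 CPM, Ccl4 at 496 against 2062 CPM and Cxcl16 at 47.9 against 407 CPM. MHC class II genes had 6 of 7 lower (median -3.13), with Cd74 at 1554 against 13622 CPM. All 7 cell cycle genes compared were lower (median -2.56), among them Mki67 at 4.56 against 47.2 CPM. Genes this low in the members passed the CPM limit only through the macrophages, so this count could hardly go otherwise. Summed over all 12 genes of the list, the levels were 96.9 CPM in the members and 486 CPM in the macrophages. An Mki67 or Top2a UMI was held by 8 of 181 members. Of 13 glycolysis and hypoxia genes, 0 were past 2-fold either way, and 1 was higher and 2 lower without library 3. The members' own library mix differed from that of the macrophages, 194 of whose 1021 cells were in library 3. The sign was the same in libraries 2, 3 and 4 for 283 of the 336 higher and 314 of the 375 lower genes, against 2108 of all 5427. These genes were chosen on pooled counts of the same libraries, so their shared sign is not a replication. With library 3 left out of both classes, 13 of 18 interferon-stimulated genes were higher and 1 lower, where 4 of 13 were higher and 3 lower with it. Without library 3, 18 of 19 macrophage genes, 12 of 15 chemokine ligands and 5 of 7 MHC class II genes were lower. These are values only, since the share over all genes in that setting is not given. All 4 endothelial markers compared were higher in that setting (median log2 5.26).

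Against neutrophils, the members were higher in classical monocyte genes and in MHC class II and lower in neutrophil markers and in the interleukin-1 and cytokine list. Of 5152 genes compared, 927 (18.0%) were at least 2-fold higher in the members and 492 (9.55%) at least 2-fold lower. The median log2 ratio over all genes was 0.22, and neutrophils had a median of 1371 UMIs. Fn1 stood at 815 against 2.25 CPM (log2 8.50, 6.95 to 10.78), F13a1 at 602 against 2.25 CPM, Ms4a6c at 897 against 4.51 CPM and Csf1r, the receptor for the monocyte growth factor CSF-1, at 246 against 57.1 CPM. S100a4, a calcium-binding protein, stood at 2327 against 12.8 CPM. Classical monocyte genes had 10 of 22 higher and 2 lower (median 0.92). Coagulation and matrix genes had 4 of 12 higher and 5 lower (median -0.49), and 5 of 12 higher and 7 lower without library 3. MHC class II genes had 6 of 6 higher (median 3.37). Neutrophils held them low, so they passed the CPM limit mainly through the members. Over all 7 genes of the list the sums were 3146 CPM in the members and 310 CPM in neutrophils. Interleukin-1 and cytokine genes had 8 of 14 lower and 3 higher (median -1.20): Il1b was at 1665 against 7333 CPM, its decoy receptor Il1r2 at 22.8 against 1211 CPM, and Pycard, higher, at 364 against 43.5 CPM. Trafficking receptors had 7 of 18 lower and 5 higher, with Ccr1 at 136 against 607 CPM and C5ar1, the receptor of complement C5a, at 66.1 against 334 CPM. Hp was within 2-fold, at 946 against 1201 CPM. Of 11 neutrophil markers, 10 were lower, 5 of them from the gates. Markers low in the members passed the CPM limit only through the neutrophils, so this count could hardly go otherwise. The S100 limit of the rule also kept out barcodes with Retnlg. Over all 11 genes, S100a8 and S100a9 included, the sums were 1868 CPM in the members and 106443 CPM in neutrophils. Mmp9, gelatinase B, had 0 UMIs in the members against 835 CPM, at least 244-fold lower at 3 UMIs. Hdc, which makes histamine, stood at 9.12 against 1160.1 CPM. Ly6g was at 0 UMIs. The sign was the same in libraries 2, 3 and 4 for 814 of the 927 higher and 453 of the 492 lower genes, against 2721 of all 5152. These genes too were chosen on pooled counts of the same libraries, so their shared sign is not a replication. Without library 3, MHC class II genes still had 6 of 6 higher, and interleukin-1 and cytokine genes 8 of 17 lower and 5 higher. Classical monocyte genes then had 13 of 24 higher and 4 lower, and trafficking receptors 8 of 19 lower and 6 higher.

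**Figure D4:**
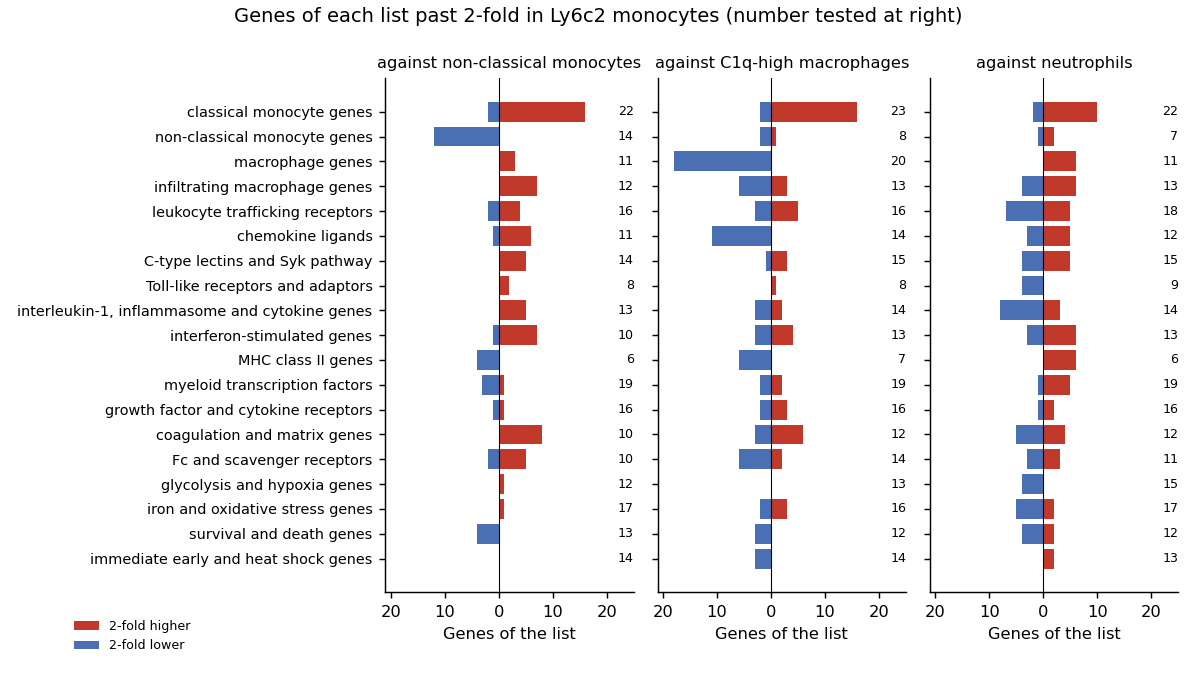
Number of genes in each of 19 lists that were at least 2-fold higher (red, right) or lower (blue, left) in Ly6c2 monocytes than in non-classical monocytes, C1q-high macrophages and neutrophils, with the number of genes compared at the right of each row. Classical monocyte genes lean higher in all 3 panels, with 16 of 22, 16 of 23 and 10 of 22, and MHC class II genes are lower in 4 of 6 (1 of 6 without library 3), lower in 6 of 7 and higher in 6 of 6.

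For the lists below, the shares of all genes past 2-fold were 6.73% higher and 10.9% lower than in non-classical monocytes. They were 6.19% and 6.91% against C1q-high macrophages, and 18.0% and 9.55% against neutrophils. Genes of infiltrating macrophages had 7 of 12 higher and 0 lower than in non-classical monocytes, 3 of 13 higher and 6 lower than in C1q-high macrophages, and 6 of 13 higher and 4 lower than in neutrophils. Without library 3 in either class these were 6 of 10 and 1, 1 of 12 and 7, and 3 of 11 and 6. Against neutrophils the count of higher genes was thus above that of lower genes with library 3 and below it without, while the median log2 ratio was -0.61 and -1.23. Fc and scavenger receptors had 5 of 10 higher and 2 lower, 2 of 14 higher and 6 lower, and 3 of 11 of each in the same order (6 of 12 and 3, 2 of 13 and 5, and 4 of 11 and 3 without library 3). Fcgr1, the high-affinity IgG receptor CD64, stood at 116 CPM in members, 19.8 CPM in non-classical monocytes and 145 CPM in C1q-high macrophages. Toll-like receptors and their adaptors had 2 of 8, 1 of 8 and 0 of 9 higher, with 4 of 9 lower than in neutrophils (2 of 7, 2 of 7 and 1 of 9 higher, and 5 of 9 lower than in neutrophils, without library 3). Growth factor and cytokine receptors had 1 of 16 higher and 1 lower than in non-classical monocytes, near or below the shares of all genes. They had 3 higher and 2 lower, and 2 higher and 1 lower, against C1q-high macrophages and neutrophils in turn. Without library 3 they had 2 of 16 higher and 1 lower, 6 higher and 2 lower, and 2 higher and 6 lower, with medians against neutrophils of -0.32 over all libraries and -0.44 without library 3. Iron and oxidative stress genes had 1 of 17 higher and 0 lower, 3 of 16 higher and 2 lower, and 2 of 17 higher and 5 lower. Without library 3 these were 4 of 16 and 2, 4 of 15 and 3, and 1 of 16 and 4. Fth1, the ferritin heavy chain that stores iron, stood at 11781 CPM in members against 25093 CPM in C1q-high macrophages. Immediate early and heat shock genes, which tissue dissociation can induce, had 0 of 14 past 2-fold against non-classical monocytes, 3 of 14 lower than in C1q-high macrophages and 2 of 13 higher than in neutrophils. Without library 3, 1 of 14 was higher and 2 lower, 2 of 14 lower, and 2 of 13 higher and 3 lower.

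Mincle, encoded by Clec4e (chr6:123281789-123289870, minus strand), binds ligands of dying cells and mycobacteria and signals through the adaptor Fcer1g and the kinase Syk. It was measured in libraries 1 to 5 of the members at 226, 356, 340.1, 419 and 308 CPM, from 10, 34, 216, 40 and 2 UMIs. These intervals all overlapped (108 to 416 CPM in library 1, 299 to 570.2 in library 4). Overlap is not a test of a difference between libraries, and none was run. The intervals count UMIs and not cells, and libraries 1 and 5 rested on 8 and 2 cells. Over all members it stood at 344 CPM, in 110 of 181 cells (60.8%), against 164 CPM in non-classical monocytes, 63.8 in C1q-high macrophages, 1079 in neutrophils and 0.63 in tubule cells. The tubule share was 0.197%. Thinned to 1000 UMIs, Clec4e was seen in 26.5% of members, 20.7% of non-classical cells, 4.29% of C1q-high macrophages and 57.5% of neutrophils. Clec4d, the neighbouring lectin that pairs with Mincle, was at 99.2 CPM in members against 134.7 in C1q-high macrophages and 909 CPM in neutrophils. The adaptor Fcer1g was abundant, at 2465 CPM. Tyrobp, not named here as an adaptor of Mincle, stood at 2980 CPM. Each was seen in 181 of 181 members. Syk stood at 135 CPM, and Card9, the adaptor after Syk, rested on 14 UMIs. Of the lectin and Syk list, 5 of 14 were higher and 0 lower than in non-classical cells, 3 of 15 higher and 1 lower than in C1q-high macrophages, and 5 of 15 higher and 4 lower than in neutrophils. Without library 3 these were 7 of 14 and 0, 5 of 15 and 1, and 4 of 15 and 5, so that against neutrophils more were lower than higher. Over all libraries the shares of all genes are those given for the lists above. Leaving out the 45 mixed members moved Clec4e to 424 CPM.

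The members of library 3 were higher than the other members in Saa3, Lcn2, Wfdc21 and neutrophil markers. They were lower in MHC class II and interferon-stimulated genes. Within the members, each library with at least 20 of them was set against the members of all others, over genes with a mean of at least 50 CPM. In library 3, 136 of 2622 genes (5.19%) were at least 2-fold higher and 162 (6.18%) lower. In library 2 these were 383 of 2665 (14.4%) and 243 (9.12%), and in library 4 169 of 2598 (6.51%) and 148 (5.70%). The genes lower in library 3 included all 3 endothelial markers compared (median log2 -3.04). For Emcn, all 99 UMIs outside library 3 lay in 1 member of library 1. The part of that member in the count of lower genes was not tested. A single UMI was worth 22.6 CPM in library 1, 10.5 in libraries 2 and 4, 1.57 in library 3 and 154 CPM in library 5, which limits what low genes can show outside library 3. Ccr2 and Plac8 were seen in every library. Ccr2 was at 362, 722, 641, 502 and 308 CPM in libraries 1 to 5, and Plac8 at 2508, 3430.4, 1894, 3978 and 5394 CPM. Chil3 was at 67.8 CPM in library 1 from 3 UMIs, and at 1015, 1409, 1644 and 154 CPM in libraries 2 to 5. It was thus low in libraries 1 and 5, which hold 10 members together, and high in the other 3. F13a1 was at 316, 408, 696, 346 and 0 CPM, and Vcan at 113, 52.3, 474, 262 and 0 CPM. Both were highest in library 3 and absent from the 2 cells of library 5, where 1 UMI would show as 154 CPM. Hp, at 610, 952, 913, 1340 and 616 CPM, and the membrane protein Ms4a6c, at 678, 1035, 857, 1089 and 1541 CPM, were present in every library.

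**Figure D5:**
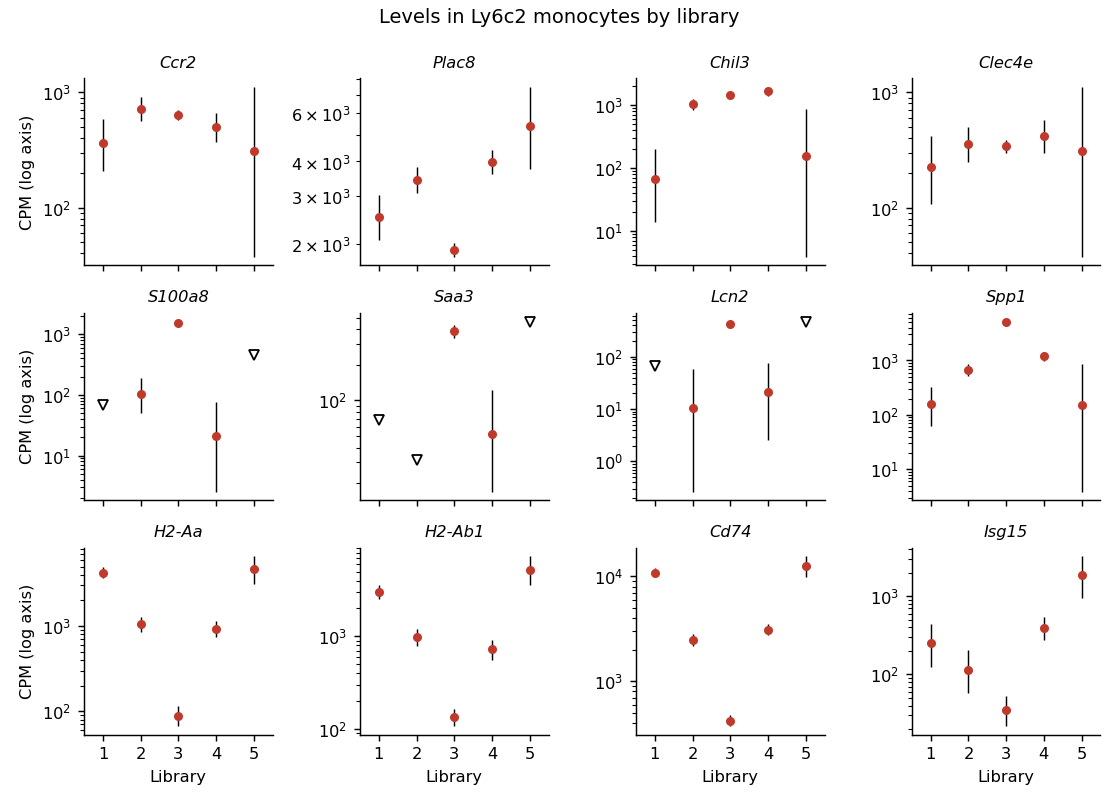
CPM (log axis) of 12 genes in the Ly6c2 monocytes of each library, with Poisson 95% intervals; open triangles mark 3 UMIs where none was seen. Saa3, Lcn2 and S100a8 are highest in library 3, where H2-Aa, H2-Ab1, Cd74 and Isg15 are lowest.

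Saa3, Lcn2 and Wfdc21 were seen almost only in library 3, and Mmp8 and Prtn3 were also found elsewhere. Saa3, an acute-phase serum amyloid (chr7:46711998-46715700, minus strand), was at 384 CPM in library 3, in 50 of 121 cells, at 52.3 CPM in library 4 from 5 UMIs, and at 0 UMIs in the other 3. Tubule cells of library 3 had Saa3 in 0.128% and C1q-high macrophages there in 5.15%, both far below the 41.3% of the members. Lcn2, lipocalin-2, which binds bacterial iron carriers, was at 420 CPM in library 3 (83 of 121 cells, against 11.2% of tubule cells there) and at 0, 10.5, 20.9 and 0 CPM in libraries 1, 2, 4 and 5. Wfdc21 was at 181 CPM in library 3 (45 cells, tubule 0.575%) and at 1 UMI in all others. Mmp8, neutrophil collagenase, was at 225 CPM in library 3, in 62 of 121 cells, and at 113, 31.4, 20.9 and 0 CPM in the others, with 4 of 8 cells positive in library 1. Prtn3 was at 126 CPM (99.9 to 157) in library 3, in 50 of 121 cells, and at 83.8 CPM (36.2 to 165) in library 4, so these levels overlapped. The other granule genes of precursors were nearly absent, with Elane at 1 UMI, Ctsg at 2 and Mpo, Ms4a3, Camp, Ngp and Ltf at 0. Barcodes of library 3 under 100 UMIs, taken as its free RNA, held Saa3 at 6.99 CPM, Wfdc21 at 12.1, Mmp8 at 3.96, Prtn3 at 1.86 and Lcn2 at 257 CPM. Over all libraries neutrophils held Lcn2 at 1621 CPM, Wfdc21 at 987 CPM and Saa3 at 17.3 CPM, while their gene Retnlg, at 6201 CPM there, had 2 UMIs in the members. Of 5 neutrophil markers compared, 4 were at least 2-fold higher in the members of library 3 and 0 lower (median log2 4.39). S100a8 and S100a9, which the rule capped, were among the higher ones. Whether the monocytes expressed Lcn2 and Wfdc21 was not tested. The median depth in library 3 was 4424 UMIs for the members and 3069.5 for tubule cells.

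Several other genes high in library 3 stood no higher than its tubule cells and free RNA. Spp1, osteopontin, was in 121 of 121 members and in all 1566 tubule cells of library 3, at 4995 against 6963 CPM, and barcodes under 100 UMIs there held it at 11347 CPM. The share of free RNA in the cells was not estimated. Whether the monocytes expressed Spp1 was not tested, and its level is given as a value only. Cxcl1 was at 121 CPM in the members, 209 in tubule cells and 289 CPM in free RNA there. Clu stood at 127.5, 161 and 925 CPM, Gdf15 at 236, 322 and 559 CPM, and Ccn1 at 335, 496 and 608 CPM in the same order. For these 4 as well, expression by the monocytes was not tested. Ccl2 was at 337 CPM in library 3 from 40 of 121 cells, at 84 CPM in library 2 and at 272 CPM in library 4.

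S100a8 and S100a9, the calgranulins of neutrophils and of some monocytes (chr3:90668978-90670035, plus strand, and chr3:90692632-90695721, minus strand), were in unequal proportion in the members. The rule capped their sum, so the levels are a description: S100a8 was at 0, 105, 1523, 20.9 and 0 CPM in libraries 1 to 5 and S100a9 at 260 CPM in library 3 and at 0 UMIs in the others. Of the 91 members with any UMI of the pair, 87 lay in library 3. There the members held 967 UMIs of S100a8 and 165 of S100a9, a ratio of 5.86. Neutrophils of the same library had a ratio of 0.724, tubule cells 0.71 and barcodes under 100 UMIs 1.23. The limit kept out cells of lower ratio, 1.83 in the 9 with 1 to 2% on the pair and 1.00 in the 13 with 2% or more, so the members' ratio depends on it. Retnlg was at 2.28 CPM (2 UMIs) in all members.

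MHC class II transcripts were lowest in the monocytes of library 3. H2-Aa was at 4226, 1046, 88.2, 921 and 4623 CPM in libraries 1 to 5, H2-Ab1 at 3006, 973, 134, 722 and 5240 CPM, and Cd74 at 10870.1, 2468, 422, 3109 and 12483 CPM. All 6 MHC class II genes compared were at least 2-fold lower in library 3 than in the other members (median log2 -3.38, against -0.02 over all genes), with H2-Aa at -4.25 (-4.68 to -3.84). The level in library 1 leaned on 1 cell, which held 113 of 187 H2-Aa UMIs, and was 1944 CPM without it. The top cell also held 34 of 100 H2-Aa UMIs in library 2, 19 of 56 in library 3 and 41 of 88 in library 4. Without it the levels there were 720, 58.9 and 516 CPM. C1q-high macrophages had H2-Ab1 at 6741, 4723, 1432, 1624 and 11615 CPM in libraries 1 to 5, so library 3 was lowest there too. Over all libraries 28 of 181 members (15.5%) had at least 3 UMIs of H2-Aa, H2-Ab1 and H2-Eb1, in libraries 1 to 5 5 of 8, 6 of 27, 11 of 121, 5 of 23 and 1 of 2. Of all tubule cells 5.06% reached the same level, within the interval for the members of library 3 (9.09%, 4.63 to 15.7).

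These 28 cells, a range of a score and not a type, were compared with the 130 members without any such UMI. Their median depths were 4149 and 4059.5 UMIs, and 11 of the 28 and 97 of the 130 came from library 3. The 28 were lower in Chil3 (323 against 1633 CPM), F13a1 (215 against 732), Fn1 (108 against 962), Vcan (47.1 against 472) and Hp (262.5 against 1110.2 CPM). Ccr2 was at 464.5 against 666 CPM, and Plac8 (2457 against 2337) and Il1b (1717 against 1692.5) were near to each other. Ciita, the activator of MHC class II genes, had 7 UMIs in 6 of the 28 and 1 UMI in the 130, and Cd209a, a lectin of monocyte-derived dendritic cells, 19 UMIs in 5 of the 28 and 7 UMIs in 2 of the 130. The 23 members with 1 or 2 MHC class II UMIs were between for F13a1, at 423 CPM, and Vcan, at 349 CPM, and close to the 130 for Fn1, at 946 CPM. The library mix of the groups differed, and its part in these values was not tested.

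Interferon-stimulated genes were also lower in library 3. Isg15, a ubiquitin-like modifier, was at 249, 115, 34.6, 387 and 1849 CPM in libraries 1 to 5, from 11, 11, 22, 37 and 12 UMIs. In library 3, 9 of 10 genes of the list were at least 2-fold lower and 0 higher (median -1.61). In library 4, 5 of 11 were higher and 0 lower (median 0.97), and in library 2, 5 of 9 higher and 0 lower (median 1.07). These contrasts share members, since each library is part of the others' reference. In library 4, 1 cell held 13 of 37 Isg15 UMIs, and the level without it was 269 CPM. In library 5, 1 of the 2 cells held 9 of 12, and the level without it was 703 CPM. Cells with at least 5 UMIs over Ifit1, Ifit2, Ifit3, Isg15 and Rsad2 numbered 9 of 181, in libraries 1 to 5 2, 1, 1, 3 and 2. Ifi27l2a was at 949, 1819.8, 646, 2010.0 and 2620 CPM.

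The widest variation among the members had tubule genes at 1 end, and what set it was not tested. The first principal component of the 181 cells took 6.51% of the variance and ran from Fau, Tyrobp and Tmsb4x to the tubule genes Slc27a2 and Slc13a1. Its Spearman correlation with the tubule share of UMIs was -0.71 over 181 cells, given as a description, since the score and the share come from the same counts. The component also correlated with log UMIs (-0.45) and with the mitochondrial share (-0.46). The second took 3.32%, with library medians of -7.42 in library 2 and -1.15 in library 4, and Spp1 and ribosomal genes at the end where library 3 lay. The third took 2.55%, with endothelial genes such as Kdr, Ptprb and Plpp1 at 1 end, which the 2 members with endothelial markers held.

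Single genes of other monocyte and macrophage states ranged from 0 UMIs to 177 CPM. Nos2, Il10, Ccr7, Mgl2, Cd163 and Marco had 0 UMIs, where 3 UMIs would be 3.42 CPM. Tnf was at 47.9 CPM, with 183.6 CPM in C1q-high macrophages and 112 CPM in neutrophils. Il6 was at 39.9 CPM, from 35 UMIs in 14 cells, against 8.8 CPM in C1q-high macrophages. Nlrp3, the inflammasome sensor, was at 177 CPM against 217 and 535 CPM in the same 2 classes. Pf4 at 58.1 CPM came from 51 UMIs in 4 cells of library 3, 36 of them in 1 cell. Lyz1, the near copy of Lyz2 with ends identical at 95.4% of positions and 15 of 411 windows shared, was at 28.5 CPM. Of its 25 UMIs, 23 lay in 2 cells of library 4, and without the cell with 18 the level there was 54.5 CPM in place of 240.8. Against all other filtered barcodes, the members' largest ratios were those of Dmkn (192-fold), F13a1 (189-fold), Vcan (182-fold), the rule's Ly6c2 (160-fold) and Saa3 (156-fold).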

How the data were processed

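Single-cell RNA-seq (10x Genomics 3' v3.1) was performed on dissociated kidneys. The authors deposited 1 matrix of raw counts, the UMIs of 32285 genes per barcode for 5 libraries, made with Cell Ranger (6.0 per the labels, 6.0.1 per the file header) on mm10. No further normalization had been applied, and library totals ran from 82426945 to 139382799 UMIs. The matrix also held empty droplets, so barcodes were filtered here as stated in the report, with 13 mitochondrial genes. No doublets were removed. Barcodes with at least 1% of UMIs on tubule or erythroid markers, or at least 2 UMIs of B, T, NK, endothelial or fibroblast markers, were left out as an alternative.

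UMIs were summed over the cells of a class and given as CPM. Because the libraries were not tied to conditions, the study counts as 1 sample: differences between classes and libraries carry counting intervals only (exact Poisson for levels, exact conditional binomial for ratios, Clopper-Pearson for shares), and no test, p-value or set test was run. UMIs of 1 library are not independent samples of a condition. A difference was counted from 2-fold on at a mean CPM of at least 20 (at least 50 between libraries). For a count of 0, 3 UMIs were taken as the upper limit. Tubule cells had at least 5% of UMIs on tubule markers, and endothelial cells at least 5 UMIs of endothelial markers, both with 0 UMIs of Ptprc. Cells were thinned to 1000 UMIs without replacement. Principal components were computed on log-scaled, depth-normalized counts. Gene positions were read from GENCODE vM21 and promoters from RefSeq, both GRCm38. The computation was tested on simulated data. Python 3.11.15, numpy 2.4.6, scipy 1.17.1, pandas 2.3.3 and matplotlib 3.10.9 were used.

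The members, the gene lists and the markers were chosen with earlier results of these data known. Genes were named if they were on a list, were 1 of the 5 markers or a near copy of one, were among the 20 highest in the members, had 1 of the 15 largest ratios each way in a comparison with the same sign in every library with at least 20 cells of both classes, had 1 of the 15 largest ratios against all other barcodes, had 1 of the 10 largest ratios each way in a library with at least 20 members, or had 1 of the 8 largest loadings at an end of the first 3 components. Some genes that this rule names are not reported here.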

Additional observations from a re-analysis of the deposited data

Results flagged for a closer look

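Outside the filters, 4 barcodes met every gene condition but had over 25% of their UMIs on mitochondrial genes. Their median was 5693 UMIs with 32.1% mitochondrial, 2 of them were in library 3, and they held Chil3 at 1272.5 CPM, Ccr2 at 159 CPM and Plac8 at 1392 CPM. They were noted because the comparisons do not use them. No barcode with at least 200 and under 500 UMIs met them.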

How the results depend on the processing

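The number of members was 109 with at least 4 Ly6c2 UMIs, and 60 to 179 with 1 library left out, 60 being the number without library 3. Of the alternative gene counts 89 were within 1.5 times the reported count and 21 were not. Of the alternative levels of Clec4e, Ccr2, Plac8, Chil3 and Il1b 29 lay within the Poisson interval of the reported level and 21 outside. The count of genes higher than in non-classical monocytes (374) was 616 as a mean over libraries, 599 after thinning, 899 from a mean of 5 CPM on, 920 over all genes with 1 UMI added, and 350 to 797 with 1 library left out. The count lower (605) was 1165 after thinning, 1513 from 5 CPM on, 3029 over all genes, and 533 to 1021 with 1 library left out. Against C1q-high macrophages, the higher count (336) was 682, 676 and 4060 under the same 3 settings and 336 to 645 with 1 library left out, and the lower count (375) was 1076 from 5 CPM on, 1614 over all genes, and 347 to 550 with 1 library left out. Against neutrophils, the higher count (927) was 1896 from 5 CPM on, 3376 over all genes and 863 to 1449 with 1 library left out, and the lower count (492) was 964, 1376 and 459 to 754. Each upper gene count with a library left out was that without library 3, which holds most member UMIs. A lower CPM minimum and the absence of one admit genes with few UMIs, whose ratios are widest. Leaving out the members with endothelial marker UMIs and taking library 3 alone in both classes, both chosen after seeing the data, moved no count of genes by over 1.5 times. The groups of the study could not be compared or paired, because the labels do not tie the libraries to them. Pairing the classes within libraries could have been done and was not tested, since the classes were chosen on the counts compared; their ratios in single libraries are given as values. Depth limits libraries 1 and 5, where 1 UMI is worth 22.6 and 154 CPM.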
